A study of Solanum lycopersicum with 6 samples.

Results

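Transcripts of carotenoid cleavage dioxygenases were measured in tomato leaf discs after treatment with loliolide, itself a metabolite of carotenoids. The members were all array probes that carry a RefSeq transcript of a tomato gene whose symbol or synonym begins with CCD or NCED and a digit. This gave 7 of the 43603 non-control probes, for 3 of the 1191 genes that could be named. CCD1A (gene 543935) had 1 probe, CCD1B (gene 544269) had 3 and NCED1 (gene 544163) had 3. CCD7 and NCED2 also match by symbol, but no probe carried their RefSeq transcripts, and they were not analysed here. In RefSeq's annotation of assembly SLM_r2.1, CCD1A and CCD1B are neighbours on chromosome 1 with 0 genes between them, and NCED1 lies on chromosome 7.

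Discs of 1 cm were cut from Micro-Tom plants (Solanum lycopersicum, a dwarf cultivar) 4 weeks old and floated for 12 h under continuous light, either on 300 µM loliolide or on 0.1% methanol as the control. Each group had 3 samples, and the RNA of each was labelled with 1 dye, cyanine-3, for an Agilent tomato array of its own. The labels name triplicate harvests and no separate plants, so a p-value here measures the spread between these samples, which may be technical. The methanol arrays all lay on one slide and the loliolide arrays on another, scanned separately, so for every difference below the slide and the treatment cannot be told apart. The number of arrays limits the precision. Of the leaf markers, CAB4 and CAB6A, both genes of chlorophyll-binding proteins, were well above background on all 6 arrays, and both had groups that overlapped. Of 7 ripe fruit markers 3 were tested, PG2, EXP1 and E8, and none passed (lowest limma adjusted p = 0.083, that of PG2). EXP1 and E8 had 1.44-fold and 1.30-fold more signal with loliolide, without overlap of the groups. Of all tested probes, 19.9% lay entirely higher with loliolide. E8 was tested with 1 of its 3 probes and PG2 with 1 of its 6. PG2 was well above background on all 3 loliolide arrays but on 1 of 3 methanol arrays. It was thus tested through the loliolide group alone, and no fold is given. The root marker PT2 differed by -1.02 (limma adjusted p = 0.0511), and no flower marker was tested. The part of other tissues in the results below was not tested.

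Carotenoid cleavage dioxygenases cut the carbon chain of carotenoids and release smaller products called apocarotenoids. CCD1 enzymes accept many carotenoids and apocarotenoids and yield volatile aroma compounds such as ionones. NCED1 is a 9-cis-epoxycarotenoid dioxygenase, which cuts xanthophylls to xanthoxin, the committed step towards the stress hormone abscisic acid. Transcripts of NCED genes in leaves are known to rise when the leaf loses water.

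None of the 7 probes passed the threshold between loliolide and methanol, a limma p under 0.05 after Benjamini-Hochberg adjustment over all 37424 tested probes. Of all tested probes 0.783% passed, 0.77% higher and 0.0134% lower with loliolide. On each of the 6 arrays all 7 members were called well above background, the scanner program's call that a spot exceeds its surroundings. All 7 had differences below 0, as had 39.2% of all tested probes, but that of 1 CCD1B probe was only -0.0026 and took either sign with other processing. The median difference of the members was -0.15 on the log2 scale, against 0.06 over all tested probes. At an unadjusted limma p under 0.05, 2 of the 7 were lower with loliolide, both of NCED1, and 0 were higher, against 5.39% of all tested probes lower and 14.7% higher. The loliolide arrays lay entirely below the methanol arrays for 4 of the 7 and entirely above for 0, where 9.61% and 19.9% of all tested probes did so. Probes of 1 gene share a target, so these counts stand for 3 genes and not for 7 independent measurements.

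NCED1 had the members' largest differences, and without the methanol array of replicate 1 these were smaller or of the other sign. Signals are given below as log2 of the processed signal relative to the 75th percentile of the same array, so that a probe at 0 equals that percentile. The NCED1 probe A_96_P225589 read -2.03, -3.02 and -2.72 on methanol arrays 1 to 3 and -3.37, -3.21 and -3.21 on loliolide arrays 1 to 3. All 3 loliolide values lay below all 3 methanol values, and methanol replicate 1 stood above the 5 other arrays. The mean was -3.26 ± 0.092 (SD, n = 3) for loliolide, against -2.59 ± 0.51 (SD, n = 3) for methanol. The difference was -0.67 (SE 0.25, 95% interval -1.26 to -0.089, limma adjusted p = 0.204), that is 1.60-fold more signal with methanol.

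The probe A_96_P000371 gave the same order of groups. It read -2.21, -3.25 and -3.13 with methanol and -3.76, -3.66 and -3.33 with loliolide. The groups did not overlap, but the highest loliolide value lay only just below the lowest methanol value. The difference was -0.72 (SE 0.28, 95% interval -1.40 to -0.043, limma adjusted p = 0.227), or 1.65-fold more signal with methanol. Among all tested probes, 0.919% had a lower difference than this probe and 1.08% a lower one than A_96_P225589. A smaller limma p than theirs was found for 17.7% and 14.7% of all tested probes.

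The third NCED1 probe, A_96_P177794, lay closest to its local background. Its spots had a median signal 1.60 to 2.52 times the local background. It read -4.55, -5.82 and -5.71 with methanol and -5.77, -5.80 and -5.40 with loliolide. Methanol replicate 1 was again the highest array, while the other methanol arrays lay close to loliolide arrays 1 and 2. The difference was -0.30 (SE 0.34, 95% interval -1.11 to 0.51, limma adjusted p = 0.659).

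**Figure D1:**
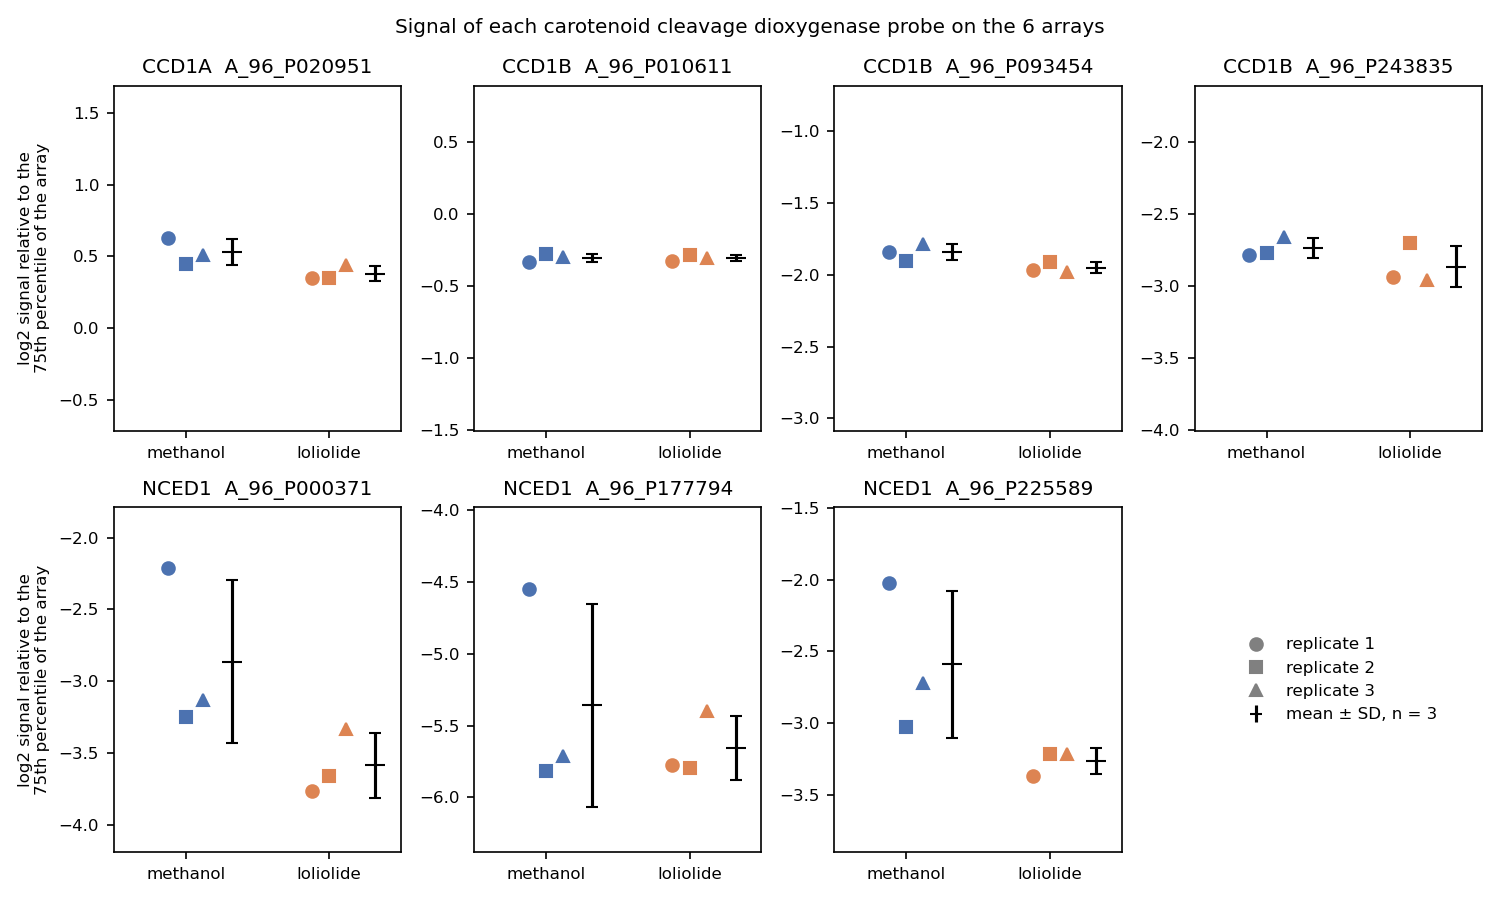
Each panel plots 1 probe, with its log2 signal relative to the 75th percentile of the array on the vertical axis and 1 point per array; black marks give the mean ± SD (n = 3), and all panels span the same number of log2 units. The methanol array of replicate 1 stands above the others for all 3 NCED1 probes (-2.21, -4.55 and -2.03), while the CCD1A and CCD1B points lie close together.

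The distance of methanol replicate 1 from its group was then measured. It exceeded the higher of the other methanol arrays by 0.92, 1.17 and 0.69 on the log2 scale for A_96_P000371, A_96_P177794 and A_96_P225589. A gap at least as wide above the other methanol arrays was found on this array for 0.481%, 0.195% and 0.842% of the tested probes. The 3 NCED1 spots lie apart on the array, in rows 508, 396 and 161 and columns 67, 4 and 8, and none was flagged as an outlier on any array. In unscaled median signal minus local background, A_96_P225589 read 285 on methanol replicate 1, 141 and 172 on the other methanol arrays, and 88 to 117 with loliolide.

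Without methanol replicate 1 the NCED1 differences were -0.40 for A_96_P000371 (limma adjusted p = 0.347) and -0.39 for A_96_P225589 (limma adjusted p = 0.307). Both are over 1.5 times smaller than with all arrays. In these probes the remaining groups still did not overlap. The difference of A_96_P177794 turned to 0.11 (limma adjusted p = 0.793), with groups that overlapped. One alternative gave a call, since with array weights A_96_P000371 differed by -1.15 (limma adjusted p = 0.042). That fit gave methanol replicate 1 a weight of 3.13, against 0.908 and 0.396 for the other methanol arrays, on the basis of all probes.

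**Figure D2:**
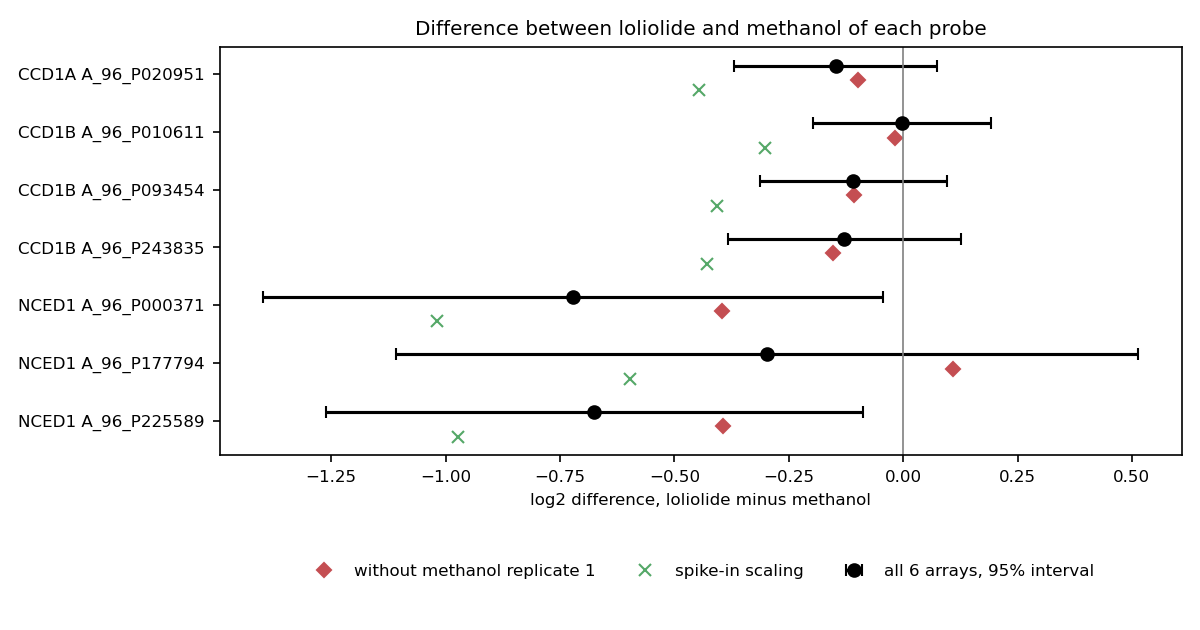
The log2 difference between loliolide and methanol is plotted for each probe, with black points and 95% intervals for all 6 arrays, red diamonds without methanol replicate 1 and green crosses after scaling to spike-in controls. Without that array the NCED1 differences move to -0.40, 0.11 and -0.39, and the spike-in scaling moves all 7 probes towards lower values.

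No CCD1 probe passed, and the size of their differences depended on the scaling between arrays. With the 75th percentile scaling the 4 probes differed by -0.15 to -0.0026. After scaling to the spike-in controls, the differences were -0.45 for CCD1A and -0.30, -0.41 and -0.43 for the CCD1B probes A_96_P010611, A_96_P093454 and A_96_P243835 (limma adjusted p between 0.207 and 0.3). The unadjusted limma p was then 0.0197 for CCD1A and 0.0424 for A_96_P093454. That scaling moved the median of all tested probes to -0.24, from 0.06. The NCED1 probes A_96_P000371, A_96_P177794 and A_96_P225589 then differed by -1.02, -0.60 and -0.97. Their limma adjusted p was 0.178, 0.253 and 0.181, and their unadjusted limma p was 0.0022, 0.066 and 0.0025. With that scaling 7846 of the 37424 tested probes had an unadjusted limma p under 0.05, against 7534 with the 75th percentile scaling.

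CCD1A read 0.63, 0.45 and 0.51 with methanol and 0.35, 0.35 and 0.44 with loliolide. The loliolide arrays lay below the methanol arrays by a narrow margin, with methanol replicate 1 again highest. The mean was 0.38 ± 0.053 (SD, n = 3) for loliolide, against 0.53 ± 0.09 (SD, n = 3) for methanol. The difference was -0.15 (SE 0.093, 95% interval -0.37 to 0.074, limma adjusted p = 0.407). The interval holds for the 75th percentile scaling, and the value with spike-in scaling, -0.45, lies outside it. Without methanol replicate 1 this difference was -0.099 (limma adjusted p = 0.718).

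The CCD1B probe A_96_P010611 was nearly flat over the arrays with the 75th percentile scaling. It read -0.34, -0.28 and -0.30 with methanol and -0.33, -0.29 and -0.31 with loliolide, so the groups overlapped fully. Its difference was -0.0026 (SE 0.082, 95% interval -0.20 to 0.19, limma adjusted p = 0.988). Its SD over the 6 arrays was 0.022, against 0.49 to 0.55 for the NCED1 probes.

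The other CCD1B probes were lower with loliolide by similar amounts. A_96_P093454 read -1.84, -1.90 and -1.79 with methanol and -1.97, -1.91 and -1.98 with loliolide. Loliolide replicate 2 came within 0.01 of the lowest methanol array, and the groups did not overlap. The difference was -0.11 (SE 0.086, 95% interval -0.31 to 0.096, limma adjusted p = 0.508). A_96_P243835 read -2.79, -2.77 and -2.66 with methanol and -2.94, -2.70 and -2.96 with loliolide. Loliolide replicate 2 lay inside the methanol range, and the difference was -0.13 (SE 0.11, 95% interval -0.38 to 0.13, limma adjusted p = 0.53). CCD1A and CCD1B encode similar enzymes, and whether a probe of one also binds transcripts of the other was not tested.

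NCED1 was also set against the CCD1 genes within each array, which does not depend on the scaling between arrays. The mean log2 signal of the NCED1 probes minus that of the CCD1B probes was -1.27, -2.38 and -2.27 with methanol and -2.56, -2.59 and -2.23 with loliolide. The groups overlapped, since loliolide replicate 3 lay above 2 of the 3 methanol arrays. This quantity differed by -0.48 between the group means, and by -0.13 without methanol replicate 1. Minus CCD1A it differed by -0.42 and, without that array, by -0.13. All NCED1 probes count equally in these means, also A_96_P177794, which lay closest to its local background. Without methanol replicate 1 that probe alone differed by 0.11, with groups that overlapped. A_96_P000371 and A_96_P225589 then differed by -0.40 and -0.39, without overlap. The brighter NCED1 probes were not set against CCD1 on their own. CCD1A minus CCD1B differed by -0.068, with groups that overlapped. The level of 1 probe cannot be compared with that of another on these arrays, so these values show unequal differences at most.

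The named genes whose signal over the 6 arrays most resembled NCED1 were then listed among 1097 tested genes with a name. For the probes A_96_P000371 and A_96_P225589 the closest was AgpL1, a large subunit of ADP-glucose pyrophosphorylase, the enzyme of starch synthesis, with Pearson's r of 0.981 and 0.973. It read 1.44, 0.96 and 1.00 with methanol and 0.70, 0.66 and 0.78 with loliolide, so methanol replicate 1 was its highest array too. Its difference was -0.42 (SE 0.15, limma adjusted p = 0.182 over 28300 genes). BMY3 followed for A_96_P000371 (r = 0.969), TBN1, a nuclease gene, was among the closest for A_96_P225589 (r = 0.961), and the protein kinase gene SOS2 was among the closest for both (r = 0.944 and 0.964). For A_96_P177794 the closest were TIL', a lipocalin gene (r = 0.954), SSR1 (r = 0.93) and Arf/Xyl3 (r = 0.916). With 6 arrays and so many genes, high correlations are found for any profile, and these are a description only.

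**Figure D3:**
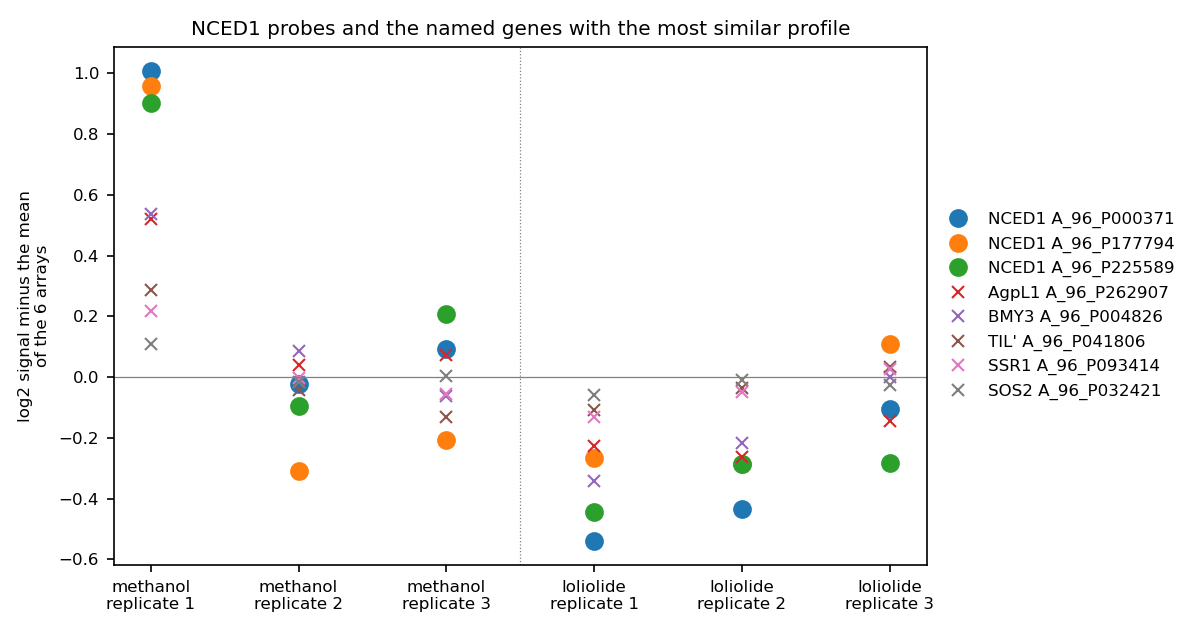
The log2 signal of each probe minus its mean over the 6 arrays is plotted per array, with filled circles for the 3 NCED1 probes and crosses for 5 genes of similar profile. All of these probes are highest on the array of methanol replicate 1, and the NCED1 probes are spread further than the other genes.

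Genes of the carotenoid pathway were examined next. The list held 28 genes, of which 20 had a named probe and 19 were tested with their brightest probe. Besides genes of carotenoid and plastid isoprenoid synthesis it held CHRD and CHRDi, genes of carotenoid-associated proteins and not of synthesis enzymes. One passed higher, 0 passed lower and 18 missed the threshold. In the whole set of genes 1.34% passed higher and 0.0318% lower. The list's median difference was -0.090, with 13 genes below 0, as were 35% of all 28300 genes, whose median was 0.08. With spike-in scaling the list's median was -0.39 and 17 genes were below 0, while the median of all tested probes moved to -0.24. The share of all genes below 0 was not counted with that scaling. The gene that passed was Psy1, a phytoene synthase, the enzyme that opens carotenoid synthesis, at 0.71 (SE 0.091, limma adjusted p = 0.0267). However, 7 of its 8 probes were below 0 and the mean over its probes differed by -0.12 (limma adjusted p = 0.562). PSY2, the other phytoene synthase gene tested, differed by -0.11 (limma adjusted p = 0.847), and all 4 of its probes were below 0.

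Of the genes that did not pass, some of the steps to and from xanthophylls, and CHRDi, are given here, picked after their values had been seen. CrtR-b1, a carotene hydroxylase that makes xanthophylls, read -1.79, -1.49 and -1.57 with methanol and -1.96, -1.96 and -2.00 with loliolide. Its groups did not overlap, and the difference was -0.36 (SE 0.11, limma adjusted p = 0.143). LCY1, a lycopene cyclase upstream of it, differed by -0.30 (limma adjusted p = 0.165), and all 3 of its probes were below 0. NSY, named for neoxanthin synthase and also listed as Cyc-B, differed by -0.31 (limma adjusted p = 0.217), with groups that did not overlap. Some other genes of the list did not share this. CYP97A29 differed by -0.048 (limma adjusted p = 0.856) and CRTL-E-1, also listed as Lcy-e, by 0.10 (limma adjusted p = 0.889). Both had groups that overlapped. VDE, the violaxanthin de-epoxidase, differed by 0.061 with its representative probe (limma adjusted p = 0.915), by -0.23 with its other probe and by -0.086 with the mean of both. The loliolide arrays lay entirely below the methanol arrays for 7 of the 19 genes, where 7.6% of all genes did so. Besides CrtR-b1, LCY1, NSY and CHRDi these were HDR, ZDS and CHRD, at -0.21, -0.14 and -0.14. Of the 6 probes of HDR, 4 were below 0. Such an order of groups was thus not confined to the genes picked here. CHRDi differed most in the list, at -1.88 (limma adjusted p = 0.0889). Like NCED1, it was highest on methanol replicate 1, at 3.57 against 2.44 and 2.17 on the other methanol arrays, and without that array it differed by -1.46 (limma adjusted p = 0.157).

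A list of abscisic acid and strigolactone genes was described in the same way. It held 23 genes, of which 14 had a named probe and 13 were tested. Its strigolactone part held only BRC1a and BRC1b, of which BRC1a was tested. No gene of strigolactone synthesis was in it, and the other genes were listed for abscisic acid. None passed in either direction, and the lowest limma adjusted p was 0.0681; at an unadjusted limma p under 0.05, 2 were higher and 1 was lower, where 16.6% and 4.07% of all genes were. The median difference was 0.016, with 8 genes above 0 and 5 below, where 35% of all genes were below 0 and their median was 0.08. With spike-in scaling the list's median was -0.28 and 10 of the 13 were below 0, while the median of all tested probes was -0.24. The list's median thus moved along with that of all probes, and the list has no direction that holds across scalings. Of the 13 genes, 2 were highest on methanol replicate 1, PP2C-2 and the dehydrin gene TAS14, where 7.82% of all genes were.

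ASR1, named for its response to abscisic acid, stress and ripening, had the smallest p of this list. It read 3.74, 3.59 and 3.86 with methanol and 4.57, 4.19 and 4.49 with loliolide. Its loliolide arrays all lay above its methanol arrays. The difference was 0.68 (SE 0.13, limma adjusted p = 0.0681), and all 7 of its probes were above 0, between 0.35 and 0.68. ABF4, a transcription factor gene of abscisic acid response, differed by -0.23 (limma adjusted p = 0.218), with groups that did not overlap. With spike-in scaling ASR1 differed by 0.38 and ABF4 by -0.53. BRC1a, a transcription factor gene of bud outgrowth, differed by 0.62 (limma adjusted p = 0.237), with groups that overlapped. Its signal was low, since only 7.70% of the tested genes were dimmer. The difference of BRC1a was 0.36 without methanol replicate 1, 0.34 with quantile normalisation, 0.32 with spike-in scaling and 0.29 with normexp background correction.

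Enzymes that make or break down abscisic acid were also picked after their values had been seen. CYP707A1, which breaks the hormone down, read -0.90, -0.29 and -0.30 with methanol and 0.85, -0.30 and -0.067 with loliolide. Methanol replicate 1 was the lowest array and loliolide replicate 1 the highest, while the other arrays lay close together. The difference was 0.66 (SE 0.33, 95% interval -0.12 to 1.44, limma adjusted p = 0.303). It was 0.32 without loliolide replicate 1, 0.46 without methanol replicate 1 and 0.36 with spike-in scaling. The aldehyde oxidase genes AO1, TAO2 and TAO3 differed by 0.15, 0.0034 and 0.12, or by -0.15, -0.30 and -0.17 with spike-in scaling. The other probe of AO1 differed by 0.30 and the mean of both by 0.23. FLACCA, which activates the molybdenum cofactor of aldehyde oxidases, differed by -0.072, its other probe by 0.49 and the mean of both by 0.21. None of these 4 passed, and their groups overlapped.

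**Figure D4:**
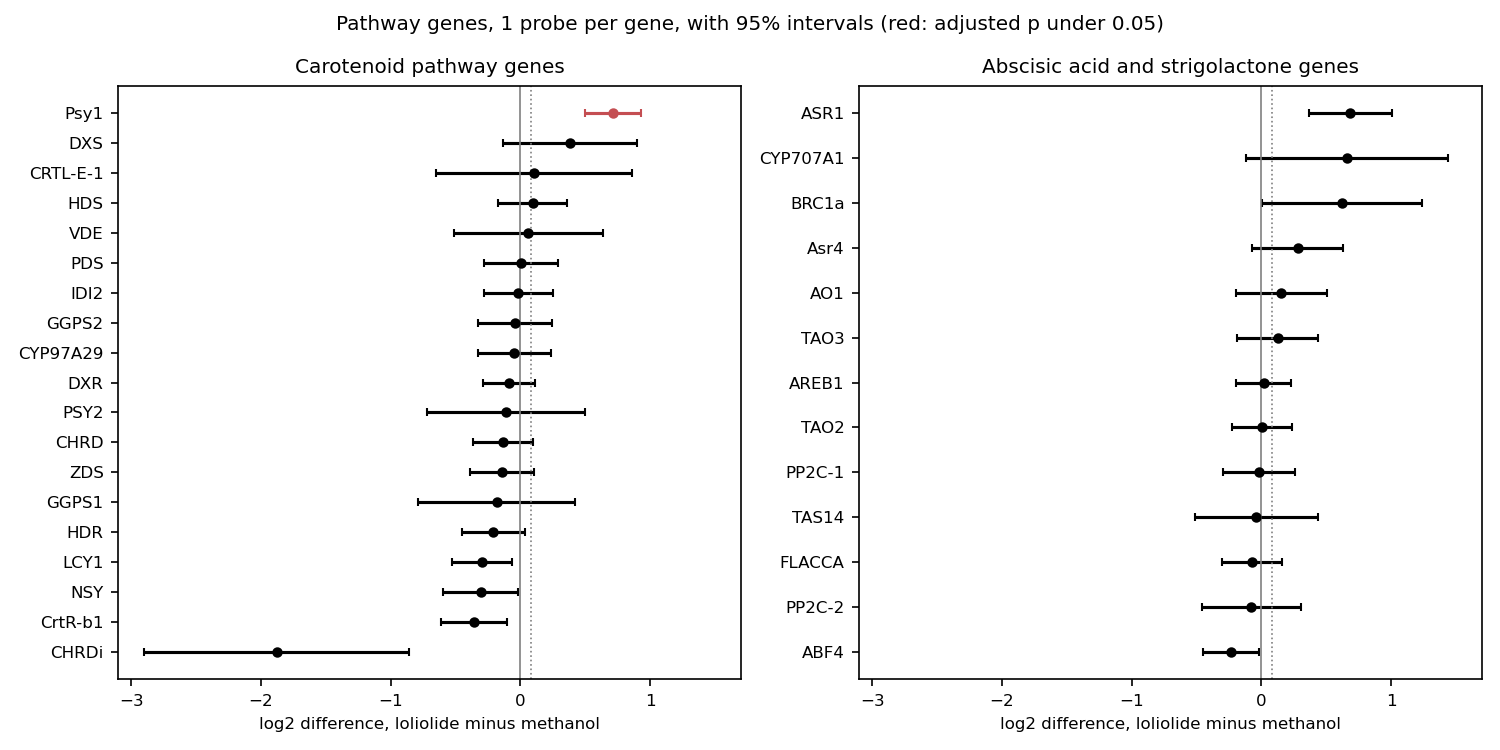
The log2 difference between loliolide and methanol is plotted with its 95% interval for 19 carotenoid pathway genes (left) and 13 abscisic acid and strigolactone genes (right); the dotted line marks the median of all genes, 0.08. Psy1 is the 1 gene past the adjusted threshold, and CHRDi lies lowest at -1.88.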

How the data were processed

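The members and gene lists were chosen with earlier results of these data known. Per the file headers, the authors deposited spot intensity values that Agilent Feature Extraction 11.5.1.1 had background-subtracted and detrended (version 9.1 per the submitters' processing notes), not normalised between arrays. The authors also deposited log2 ratios for 27 probes, of which 0 are members. The processed signal was log2-transformed and centred on the 75th percentile of the non-control spots of its array. Outlier-flagged spots, 0 to 5 per array, were left out, and replicate spots averaged. Probes well above background on all arrays of a group were tested, 37424 in all, with lmFit and eBayes of limma 3.58.1 (R 4.3.3). A gene was represented by its brightest probe. Accessions were matched to RefSeq symbols, which named 5.91% of the probes. Every member is named; of the lists, the rule took genes that passed or else the 3 with the smallest p, and other list genes were added after their values were seen; for the 3 most variable members the 3 named genes with the highest correlation. Alternatives covered scaling, background correction, filters, the variance model, weights, the replicate block and each array left out.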

Additional observations from a re-analysis of the deposited data

How the results depend on the processing

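As reported, 293 probes, 0 of the 7 members, 1 carotenoid pathway gene and 0 abscisic acid and strigolactone genes changed. The number of changed probes was 189 with median centring, 107 with quantile normalisation, 102 with cyclic loess, 65 with spike-in scaling, 95 with normexp, 190 when all 6 arrays had to exceed background, 159 with a variance trend and 3523 with array weights. Array weights gave 1 member, 2 carotenoid pathway genes and 1 abscisic acid gene, and A_96_P000371 then differed by -1.15. No carotenoid pathway gene passed with spike-in scaling (0), the mean over a gene's probes (0) or the replicate block (0). The replicate block left 0 changed probes (5195 at an unadjusted limma p under 0.05) and 0 members. The labels do not say that the numbers pair samples, and same-numbered arrays deviated with correlations of -0.16, -0.14 and -0.46. When single arrays were left out, between 0 and 105 probes passed, with 0 members and 0 carotenoid pathway genes in each fit; 0 probes passed without loliolide replicate 1. The CCD1B probe A_96_P010611 took the other sign at 0.0012 with quantile normalisation, 0.0052 with normexp and 0.023 with array weights, and ranged from -0.019 to 0.0092 without each array. The NCED1 probe A_96_P177794 was 0.012 with normexp, which also replaced processed by median signals, and ranged from -0.53 to 0.11 without each array. The 5 other members stayed below 0 in all 16 alternatives, though the CCD1B probe A_96_P243835 was only -0.00082 with array weights. The filters, the variance trend and the replicate block cannot move a member's difference, so they do not bear on its sign. The median over all probes, 0.06, became -0.24 with spike-in scaling. Normexp used median signals, since the files used here hold no mean signal, and added an offset of 50. On the log2 scale an offset narrows the differences of dim probes, such as A_96_P177794 and the probe of BRC1a. The cause was not tested for any shift.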

Other observations

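Outside the comparison of groups, methanol replicate 1 exceeded both other methanol arrays by at least 0.7 on the log2 scale for 308 tested probes, or 0.823%. The same count was 752 for methanol replicate 3 and 98 for methanol replicate 2. For the loliolide arrays it was 211, 84 and 544. Methanol replicate 1 is therefore not the array with the most such probes in its group. The profile of CCD1A over the 6 arrays had a Pearson's r of 0.977, 0.815 and 0.955 with those of the NCED1 probes A_96_P000371, A_96_P177794 and A_96_P225589. Over all pairs of a CCD1B and an NCED1 probe, r ranged from -0.71 to 0.73. These values share arrays and scaling, and no cause was tested.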
